A study of Mus musculus with 8 samples.

Results

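Interferon response genes are the genes that cells switch on when interferon reaches them, and 37 of them are described here in macrophages of mouse fat. They were taken as a named list (Isg15, Mx1, Rsad2, Stat2, Ddx60 and others) that leaves out the Ifit and Oas families, and all 37 were found by symbol among the 41388 genes of the tables. RNA was sequenced from macrophages of the epididymal fat pad of 4 male mice on normal chow. The mice, named MitoFat, carry an adipocyte-specific reporter of mitochondria, mtD2, a mitochondria-targeted form of the fluorescent protein Dendra2. In each mouse, live CD45+ F4/80+ CD64+ cells were sorted into mtD2+ macrophages, which held reporter signal, and mtD2- macrophages, which did not. Both populations come from the same reporter mice, so neither lacks the transgene. The sources give no age for the mice, no number of sorted cells and no further allele. The 8 libraries, 4 of each population, form 4 pairs by mouse, and they held 18462287 to 27464399 counts. It can be asked of each gene whether it differs between macrophages that carry the adipocyte reporter and macrophages of the same fat pad that do not.

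Type I interferons, interferon beta and the interferon alphas, bind the receptor IFNAR1/IFNAR2. The kinases JAK1 and TYK2 then activate STAT2, which acts in a complex with IRF9 that binds interferon-stimulated response elements (ISREs) before the response genes. Some response genes, Isg15, Rsad2 and Ifit1 among them, can also be induced by IRF3 with no interferon receptor involved. The products act against viruses: they tag proteins with ISG15, sense or edit double-stranded RNA, stop viral polymerases or damp the signal. Tissue macrophages are known both as sources of interferon beta and as cells that answer it.

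A few of the genes differed between the populations, and 30 of the 36 that could be tested did not pass the test. Isg15 (a ubiquitin-like protein), Rsad2 (viperin), Trim25 (a ubiquitin ligase), Ddx60 (a helicase) and Ifi203 (a PYHIN family protein) rose in mtD2+ macrophages, by 1.49-fold (Ifi203) to 2.08-fold (Isg15). Tor3a, an interferon-induced ATPase of the torsin family, fell to 36.5 ± 3.74 CPM in mtD2+, against 52.6 ± 5.07 CPM in mtD2- (SD, n = 4 each). Thus 5 of 36 tested members rose and 1 fell, where 3.72% of all 13933 tested genes rose, 1.78% fell and 5.50% changed in either direction. At an unadjusted p under 0.05 there were 12 members, against 22.8% of all tested genes. The median log2 fold change of the tested members was 0.0017, and that of all tested genes was -0.00064. Changes were called with edgeR's quasi-likelihood test with the mouse as a block, at a Benjamini-Hochberg adjusted p under 0.05 over all tested genes. CPM, the count scaled for sequencing depth, is here taken over the library's tested genes with TMM factors, and all fold changes are mtD2+ over mtD2-. The count depends on the mouse as a block and on single mice. Without the block 1 member rose and 0 fell (6 and 2 at an unadjusted p under 0.05, edgeR), where 1.06% of all tested genes rose and 0.510% fell. Without mouse 1, 2, 3 or 4 in turn, 1, 2, 1 and 4 members were called, and Ddx60 was called each time. Those fits called 215, 273, 166 and 555 of 14006, 13924, 14119 and 14045 tested genes, against 767 of 13933 with all mice. DESeq2 called 6 higher and 3 lower, where it called 8.31% of all genes higher and 4.98% lower, and limma voom called 6 higher and 2 lower, where it called 4.98% higher and 2.67% lower. The split of 5 higher and 1 lower became 4 and 2 with plain library totals, where Ifi203 lost its call and Lgals3bp gained one, and 5 and 0 with upper-quartile scaling.

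**Figure D1:**
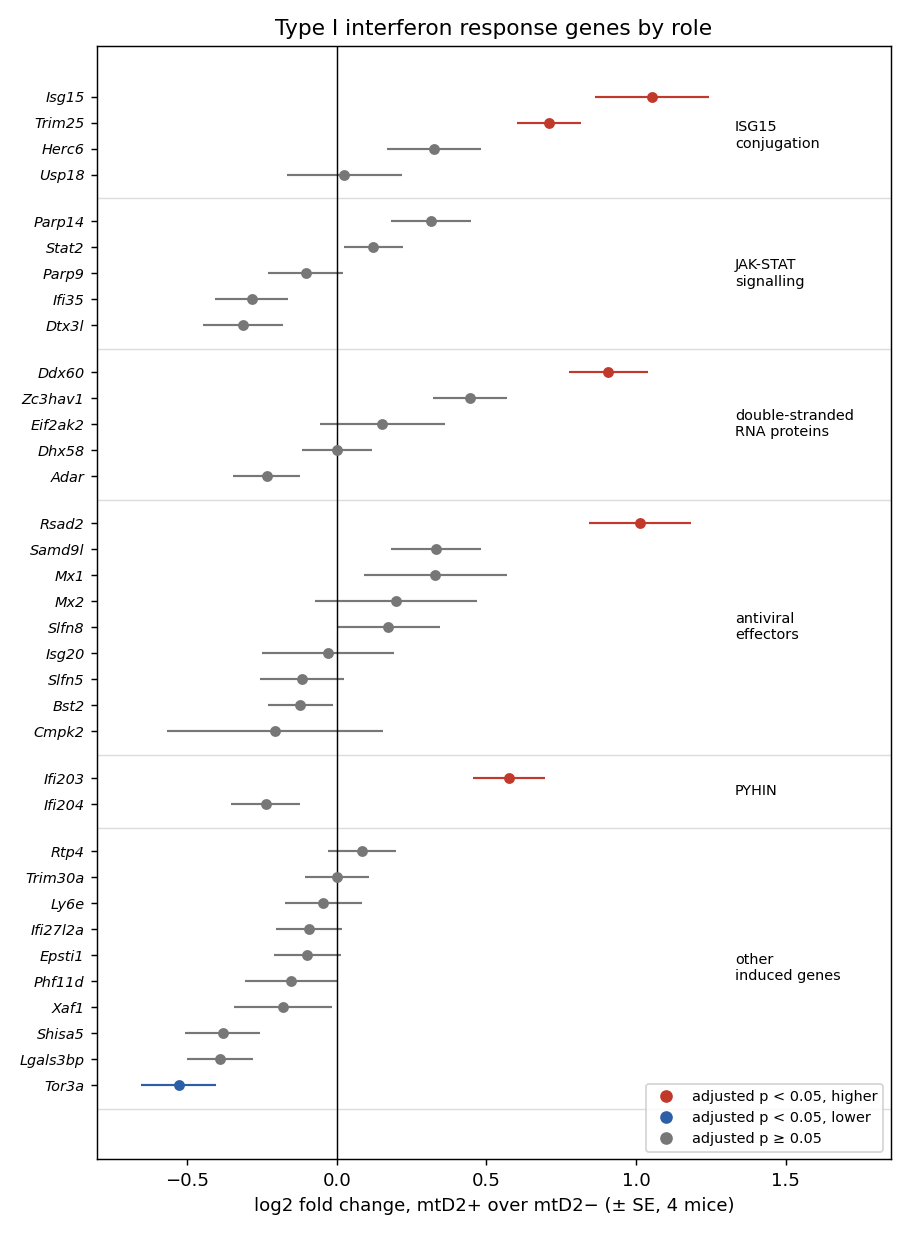
Log2 fold change (mtD2+ over mtD2-, horizontal axis) for 35 members, grouped by role, with its SE derived from the edgeR F statistic (4 mice). Ifi44, whose SE is 0.97, is not drawn. Isg15, Trim25, Ddx60, Rsad2 and Ifi203 stand to the right of 0 in red and Tor3a to the left in blue, and the grey genes, which did not pass the test, lie between -0.39 and 0.45.

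To show where the response element sits, promoter sequence from RefSeq (build GRCm38.p6) was searched for the ISRE core, read as GAAA, any 2 bases and GAAA again, on both strands and with overlapping matches included. Each window ran from 250 bases before a gene's start to 50 after it. Windows were held for 26 members. Of these, 11 had the core in at least 1 window, and so did 3.99% of all 27025 genes with a window. Among the members that rose, Isg15, Rsad2, Ddx60 and Ifi203 had it and Trim25 did not. Among the other members with a window, 7 of 21 had it. The 250 bases before the start of Isg15 (chr4:156200819-156201068, minus strand), of Rsad2 (chr12:26456453-26456702, minus strand) and of Trim25 (chr11:88999153-88999402, plus strand) are shown 5′ to 3′, because these genes rose with 3, 1 and 0 matches. Capitals mark the matches, and those of Isg15 overlap each other.
Isg15: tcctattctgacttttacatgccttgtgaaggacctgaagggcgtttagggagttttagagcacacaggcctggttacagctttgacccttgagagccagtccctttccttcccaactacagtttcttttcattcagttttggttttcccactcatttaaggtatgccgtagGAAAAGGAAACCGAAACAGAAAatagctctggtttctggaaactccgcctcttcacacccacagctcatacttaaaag
Rsad2: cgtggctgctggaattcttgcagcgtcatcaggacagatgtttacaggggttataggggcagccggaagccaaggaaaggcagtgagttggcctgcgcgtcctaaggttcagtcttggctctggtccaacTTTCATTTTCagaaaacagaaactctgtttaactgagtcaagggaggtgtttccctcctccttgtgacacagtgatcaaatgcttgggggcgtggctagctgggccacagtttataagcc
Trim25: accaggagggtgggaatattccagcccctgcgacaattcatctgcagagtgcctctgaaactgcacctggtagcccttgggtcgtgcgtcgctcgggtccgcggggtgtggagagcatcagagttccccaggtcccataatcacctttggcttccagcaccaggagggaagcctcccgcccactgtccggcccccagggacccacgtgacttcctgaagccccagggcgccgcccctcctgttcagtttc

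The matching sites of other members are shown as 30 bases each, 5′ to 3′ on the gene's strand, so that genes that rose can be set beside genes that did not pass the test. Ddx60 held the core at -53 to -44 and again at -19 to -10 from its start, and Ifi203 at -35 to -26 from the start of 1 of its 2 windows. Bst2, Slfn8 and Trim30a, which did not pass, held it at -130 to -115, -48 to -39 and -36 to -27 (for Slfn8 and Trim30a from the first start listed). A match is only these letters in this window, and so is its absence.
Ddx60, chr8:61928024-61928053: gtgatgaatgGAAACCGAAActtaaagctt
Ddx60, chr8:61928058-61928087: gagcagaagaGAAACCGAAActatccttca
Ifi203, chr1:173942508-173942537: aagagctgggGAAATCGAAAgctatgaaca
Bst2, chr8:71537580-71537609: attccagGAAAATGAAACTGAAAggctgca
Slfn8, chr11:83020839-83020868: atttgagcagTTTCGTTTTCcccaaaagca
Trim30a, chr7:104465210-104465239: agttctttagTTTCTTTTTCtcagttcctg

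Of the 4 genes of ISG15 conjugation, Isg15 and Trim25 rose, and Herc6 and Usp18 did not pass the test. Isg15 (chr4:156199424-156200818) encodes the tag itself. It stood at 152, 112, 75.9 and 112 CPM in mtD2+ of mice 1 to 4, against 62.1, 53.4, 25.9 and 90.9 CPM in mtD2-. It was higher in mtD2+ in each mouse, least in mouse 4, and the mtD2- library of mouse 4 lay above the mtD2+ library of mouse 3, so the populations overlap. The log2 fold change of Isg15 was 1.05 (SE 0.19, adjusted p = 0.0173, edgeR). Without mouse 4 it was 1.30, and without mouse 1, 2 or 3 the call was lost (adjusted p = 0.0904, 0.0746 and 0.0920).

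Trim25 (chr11:88999376-89020293), a ligase for ISG15 and ubiquitin that acts on the RNA sensor RIG-I, had 179, 184, 255 and 170 CPM in mtD2+, against 108, 120, 135 and 113 CPM in mtD2-. All 4 mtD2+ libraries lay above all 4 mtD2- libraries, as they did for 6.55% of tested genes. The log2 fold change of Trim25 was 0.71 (SE 0.11, adjusted p = 0.00895, edgeR). It kept its call when the mouse was left out of the model and lost it without mouse 1 or mouse 3 (adjusted p = 0.0590 and 0.0634). Usp18, the protease that removes ISG15 and also blocks the interferon receptor, had 31.0, 37.1, 25.2 and 41.0 CPM in mtD2+, against 35.7, 23.7, 23.2 and 56.2 CPM in mtD2-. It was higher in 2 mice and lower in 2 (log2 0.03, SE 0.19). Herc6, the main ISG15 ligase of the mouse, averaged 31.7 ± 3.13 CPM in mtD2+ and 25.6 ± 5.61 CPM in mtD2- (log2 0.32, SE 0.16, adjusted p = 0.264, edgeR, n = 4 each).

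**Figure D2:**
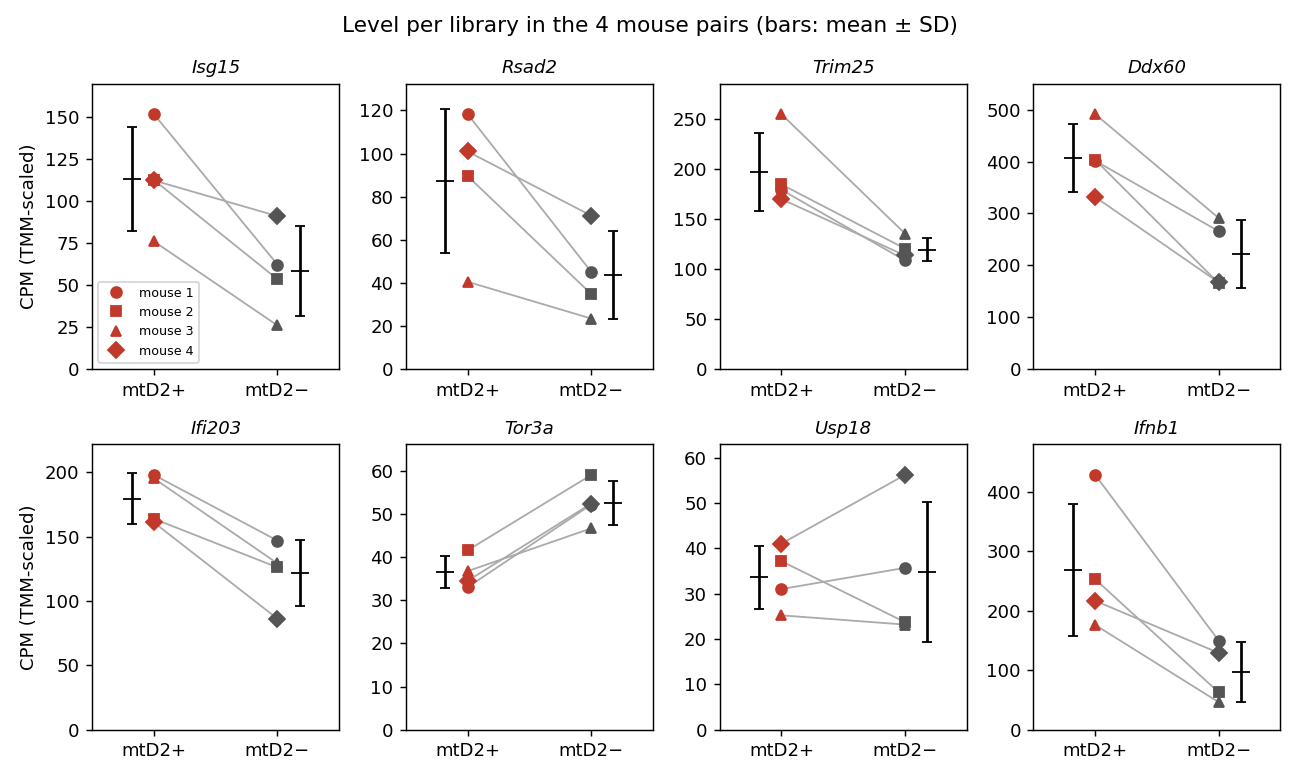
CPM per library (vertical axes from 0) of the 6 members that passed the test, of Usp18 and of Ifnb1. Markers show the mouse, lines join the populations of 1 mouse, and bars beside the points are mean ± SD (n = 4). Every line of Isg15, Rsad2, Trim25, Ddx60, Ifi203 and Ifnb1 is higher at mtD2+, every line of Tor3a is lower there, and those of Usp18 run both ways.

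Rsad2 was the antiviral effector that rose, 1 of 9 tested. Its product viperin makes a chain-terminating nucleotide that stops viral polymerases. Rsad2 (chr12:26442753-26456452) stood at 118, 89.5, 40.4 and 101 CPM in mtD2+, against 45.1, 34.8, 23.4 and 71.2 CPM in mtD2-. As with Isg15, each mouse was higher in mtD2+, mouse 3 was lowest in both populations, and the populations overlap. The log2 fold change of Rsad2 was 1.01 (SE 0.17, adjusted p = 0.0129, edgeR). The call was lost without mouse 1, 2 or 3 (adjusted p = 0.0743, 0.0664 and 0.0573) and kept without mouse 4.

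Cmpk2, a nucleotide kinase encoded beside Rsad2, did not pass the test. It had 6.06, 7.20, 3.14 and 4.81 CPM in mtD2+, against 6.20, 5.63, 7.53 and 4.60 CPM in mtD2- (log2 -0.21, SE 0.36). The dynamin-like GTPase Mx1 averaged 25.8 ± 4.72 CPM in mtD2+ and 20.7 ± 5.00 CPM in mtD2- (SD, n = 4 each, log2 0.33, SE 0.24), higher in mice 2 and 4 and lower in mice 1 and 3. Its relative Mx2, a polymorphic pseudogene in the annotation, had a log2 fold change of 0.20 (SE 0.27). Samd9l, a restriction factor, had a log2 fold change of 0.33 (SE 0.15), the Schlafen gene Slfn8 0.17 (SE 0.17), the exonuclease Isg20 -0.03 (SE 0.22), Slfn5, also of the Schlafen family, -0.12 (SE 0.14) and Bst2, the virion tether tetherin, -0.12 (SE 0.11).

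Of 5 genes for proteins that bind or act on viral or double-stranded RNA, Ddx60 rose. Ddx60 (chr8:61928087-62037701), a helicase described as a partner of RIG-I-like sensors, had 402, 403, 492 and 332 CPM in mtD2+, against 266, 165, 291 and 167 CPM in mtD2-. The populations did not overlap (log2 0.91, SE 0.13, adjusted p = 0.00785, edgeR). Ddx60 was the member whose call held whichever mouse was left out (log2 0.78 to 1.01), and it missed the threshold without the block (adjusted p = 0.0603). Zc3hav1, the antiviral zinc finger protein ZAP, averaged 297 ± 30.2 CPM in mtD2+ and 219 ± 27.6 CPM in mtD2- without overlap (log2 0.45, SE 0.12). It stood just outside the threshold with edgeR (adjusted p = 0.0718) and passed with DESeq2 and limma voom. Adar, which edits double-stranded RNA, had 50.9, 51.9, 46.7 and 54.1 CPM in mtD2+, all below the 59.8, 58.0, 57.0 and 64.7 CPM in mtD2- (log2 -0.23, SE 0.11, adjusted p = 0.259). The kinase gene Eif2ak2, which encodes PKR, and Dhx58, which encodes the RIG-I-like protein LGP2, had log2 fold changes of 0.15 (SE 0.21) and 0.002 (SE 0.12).

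Among the 5 genes of interferon signalling and its ADP-ribosylation partners, 0 passed with edgeR, DESeq2 or limma voom, and 3 had an unadjusted p under 0.05 with edgeR. Stat2, which carries an activation domain into its complex with IRF9, averaged 122 ± 7.43 CPM in mtD2+ and 112 ± 6.49 CPM in mtD2- (n = 4 each, log2 0.12, SE 0.10). Parp14, an ADP-ribosyltransferase, had 87.3, 102, 125 and 134 CPM in mtD2+, against 96.2, 75.4, 87.3 and 98.8 CPM in mtD2- (log2 0.31, SE 0.13, adjusted p = 0.208). Dtx3l, a ubiquitin ligase, had 57.2, 61.4, 54.7 and 40.7 CPM in mtD2+, against 58.0, 68.8, 79.8 and 58.7 CPM in mtD2- (log2 -0.31, SE 0.13, adjusted p = 0.210). Parp14 was higher in 3 of 4 mice and Dtx3l lower in each, with overlap in both. Parp9, the binding partner of DTX3L, had a log2 fold change of -0.10 (SE 0.13), and Ifi35, a leucine zipper protein, -0.28 (SE 0.12). Exons of Parp9 and Dtx3l share 458 bases on opposite strands, and whether the counting used strand is not given, so reads there cannot be told apart.

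Of the pair of PYHIN genes, which belong to a family that binds DNA, Ifi203 rose and Ifi204 did not pass. Ifi203 (chr1:173920407-173942672) had 198, 164, 195 and 161 CPM in mtD2+, against 147, 126, 129 and 86.2 CPM in mtD2-, without overlap (log2 0.58, SE 0.12, adjusted p = 0.0291, edgeR). Its call was lost without any 1 of the 4 mice (log2 0.47 to 0.64). Ifi204, a sensor that acts with STING, averaged 107 ± 12.6 CPM in mtD2+ and 126 ± 10.2 CPM in mtD2- (n = 4 each, log2 -0.24, SE 0.12). These genes lie in a cluster of closely related copies, so their reads are uncertain, and Ifi203 shares 37 exon bases with its neighbour Mndal.

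The 12 remaining members, 11 of them tested, held the gene that fell. Tor3a (chr1:156653617-156674356) had 33.1, 41.6, 36.8 and 34.5 CPM in mtD2+, all below the 52.2, 59.1, 46.7 and 52.4 CPM in mtD2-, as was so for 6.01% of tested genes (log2 -0.53, SE 0.13, adjusted p = 0.0471, edgeR). The call was lost without any 1 mouse (log2 -0.58 to -0.48). Lgals3bp, a secreted glycoprotein, averaged 171 ± 42.0 CPM in mtD2+ and 223 ± 51.8 CPM in mtD2- (log2 -0.39, SE 0.11). It stood just outside the threshold with edgeR (adjusted p = 0.0779) and passed as lower with DESeq2, limma voom and library totals. Shisa5, a membrane protein linked to cell death, was lower in each mouse too (log2 -0.38, SE 0.13, adjusted p = 0.115, edgeR). It passed as lower with DESeq2. Rtp4, a chaperone of receptors, Trim30a, which restrains Toll-like receptor signalling, Xaf1, which favours apoptosis, and Ly6e, Ifi27l2a, Epsti1 and Phf11d lay between -0.18 and 0.09. Ifi44 had 0 to 32 counts a library and gave no usable fold change. Ifi44l had 0 counts in every library, which allows up to 3 counts, or 0.109 to 0.162 CPM of a library's whole total, and was not tested.

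Over all 36 tested members, 8 were higher in mtD2+ in all 4 mice, 8 were lower in all 4, and 20 ran both ways. Among all tested genes 16.3% were higher and 16.0% lower in all 4 mice, against 22.2% of the tested members in each direction. The 8 higher ones were Isg15, Trim25, Herc6, Rsad2, Ddx60, Zc3hav1, Ifi203 and Stat2. The 8 lower ones were Tor3a, Lgals3bp, Shisa5, Adar, Ifi35, Dtx3l, Parp9 and Bst2, which was nearly level in mouse 2. The 29 members other than Ifi44 that did not pass had log2 fold changes of -0.39 to 0.45 with SEs of 0.10 to 0.36. Missing the threshold does not show that their levels were equal.

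Levels can be compared between genes only per length, and for this the deposited RPKM, the CPM of a library's whole total per kilobase of exon, was used. Ifi27l2a, a small hydrophobic membrane protein, was highest with 291 ± 67.9 RPKM in mtD2+ and 320 ± 53.5 in mtD2-. Ly6e, a surface protein anchored by a lipid, followed with 261 ± 53.9 in mtD2+ and 276 ± 22.6 in mtD2-. Then came Bst2 with 145 ± 16.4 RPKM in mtD2+ and 164 ± 22.4 in mtD2-, Shisa5 with 103 ± 13.6 in mtD2+ and 140 ± 14.9 in mtD2-, and Isg15 with 146 ± 39.6 in mtD2+ and 76.8 ± 30.8 in mtD2- (SD, n = 4 each). Ifi27l2a and Ly6e did not differ beyond their spread, and of these 5 genes only Isg15 passed the test.

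In CPM, Ifi27l2a had 126, 167, 96.1 and 163 in mtD2+, against 140, 149, 109 and 188 in mtD2-, lower in 3 of 4 mice. Ly6e had 766, 1274, 966 and 1033 CPM in mtD2+, against 912, 967, 1077 and 1156 CPM in mtD2-, also lower in 3 of 4. Bst2 had 112, 123, 93.6 and 124 CPM in mtD2+, against 118, 123, 97.9 and 157 CPM in mtD2-. Shisa5 had 334, 395, 282 and 345 CPM in mtD2+, against 401, 415, 394 and 561 CPM in mtD2-. In these 4 genes of high level the populations overlap. At the low end Mx2 averaged 1.98 ± 0.303 RPKM in mtD2+ and 1.80 ± 0.259 in mtD2-, and Cmpk2 1.62 ± 0.531 in mtD2+ and 1.93 ± 0.483 in mtD2-.

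**Figure D3:**
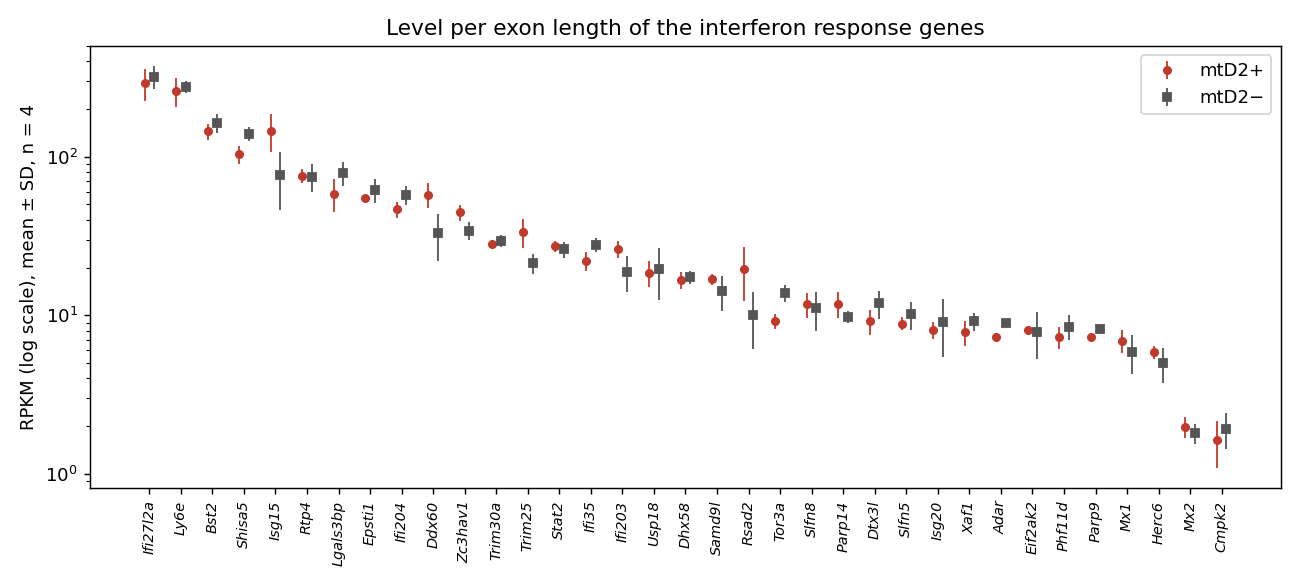
Deposited RPKM (log axis) of 35 members in order of their mean over all libraries, with mtD2+ left of mtD2- and bars of SD (n = 4). The genes reach from about 300 RPKM (Ifi27l2a) to under 2 (Cmpk2), and those that rose lie in the middle and upper part of the order.

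The summed CPM of the 36 tested members was 4185, 4879, 4316 and 4450 in mtD2+ of mice 1 to 4, against 4164, 3971, 4119 and 4419 in mtD2-. Their log2 ratios within a mouse were 0.01, 0.30, 0.07 and 0.01, so the sum was nearly level in 3 mice. Ly6e alone held 23.6% of this sum. Without Ly6e the sum was 3350 to 3605 CPM in mtD2+ and 3004 to 3263 in mtD2-, without overlap. The log2 ratios in mice 1 to 4 were then 0.07, 0.26, 0.14 and 0.07. This smaller sum holds the 5 genes that rose, so its separation is no result apart from theirs. With Ly6e the sums of the populations overlapped. Over all tested genes the summed CPM gave ratios of 0.07, 0.13, 0.09 and -0.06. These are set by the TMM factors alone and measure no shift of all genes. Between mice, Rsad2 varied most among the members other than Ifi44, with a coefficient of variation of 38.3% in mtD2+ and 46.8% in mtD2-. The median over members was 13.7% in mtD2+ and 17.7% in mtD2-, and over all genes of that range of level 16.9% and 19.9%.

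Genes of interferon production and signalling were read beside the members, 28 tested of 46 in the tables. Ifnb1, which encodes interferon beta, stood at 428, 253, 176 and 217 CPM in mtD2+, against 150, 62.6, 46.1 and 129 CPM in mtD2-, without overlap (log2 1.56, SE 0.20, adjusted p = 0.00495, edgeR). The calls of Ifnb1 and Ifih1 held whichever mouse was left out and were lost without the block, where no gene of this list passed (4 higher and 5 lower at an unadjusted p under 0.05, edgeR). The other 18 interferon genes listed had too few counts to test, and 11 of them had none. Ifih1, the RNA sensor MDA5, rose 1.30 (SE 0.13), Irf1, an interferon-induced transcription factor, 0.78 (SE 0.18), and Tbk1, the kinase of IRF3, 0.63 (SE 0.13), on the log2 scale. The call of Irf1 was lost without mouse 1, 2 or 3 (log2 0.63 to 1.03 over the fits without each mouse), and that of Tbk1 without any 1 mouse and with library totals (adjusted p = 0.0583).

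The receptor genes, Irf9 and Irf7 did not pass the test. Ifnar1 averaged 137 ± 13.8 CPM in mtD2+ and 159 ± 23.9 CPM in mtD2-, and Ifnar2 65.4 ± 9.68 CPM in mtD2+ and 77.2 ± 13.0 CPM in mtD2- (n = 4 each). Irf9, the partner of STAT2, had a log2 fold change of -0.21 (SE 0.12) and Irf7, an interferon-induced amplifier, -0.20 (SE 0.15). Thus 4 of 28 rose and 0 fell with edgeR (5 lower at an unadjusted p under 0.05), with Ifnb1, Ifih1, Irf1 and Tbk1 as the 4 (median log2 of the list -0.03). Among all tested genes 3.72% rose and 1.78% fell with edgeR. DESeq2 called 4 higher and 2 lower, Irf3 and Irf8, and limma voom called 4 higher and 0 lower.

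Of the Ifit and Oas families, which bind or sense foreign RNA in the type I response, 4 of 14 tested genes rose: Ifit1 (log2 2.00), Ifit2 (1.65), Oasl1 (1.47) and Oas2 (0.62). Without the block Ifit1 and Ifit2 passed, and with library totals Ifit1, Ifit2 and Oasl1 did. Ifit3 and Oasl2 had log2 fold changes of -0.18 (SE 0.24) and -0.06 (SE 0.13), and the median of the 14 was -0.11. Of 15 tested GTPase genes induced mainly by interferon gamma, Gbp9 rose (log2 1.15, SE 0.18, adjusted p = 0.0093, edgeR), and the median was -0.09. Gbp9 was not called without mouse 2 (adjusted p = 0.0534) or without the block (adjusted p = 0.0502). Among all tested genes 3.72% rose, and the share of each list that rose was not tested against this or against the members.

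**Figure D4:**
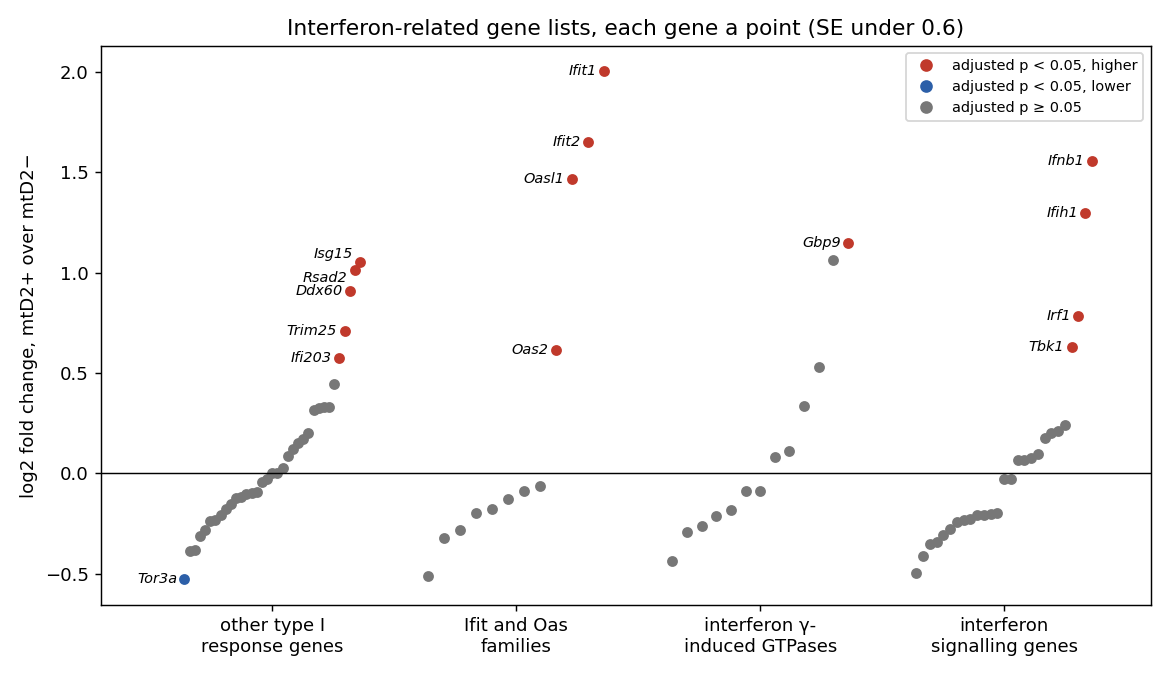
Log2 fold change (vertical axis) of each tested gene with an SE under 0.6 in 4 lists, sorted within a list: 35 members, 12 Ifit and Oas genes, 13 GTPase genes and 27 signalling genes. The named genes passed the test, 5 members, 4 Ifit and Oas genes, Gbp9 and 4 signalling genes above 0 and Tor3a below it. Most other points lie between -0.5 and 0.5.

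The sorted populations also differed in genes outside the interferon response. All 10 markers of fibroblasts and adipocyte precursors had negative fold changes and 7 fell, where 1.78% of all tested genes fell. Their summed CPM was 613 to 908 in mtD2+ and 1977, 1813, 1802 and 4603 in mtD2- of mice 1 to 4. Of 24 genes that respond to tissue dissociation, 9 rose and 0 fell, where 3.72% of all tested genes rose. Of the 24, 21 had positive fold changes (median log2 0.45). Their sum was 27776 to 33050 CPM in mtD2+ and 20743, 15065, 17379 and 30768 in mtD2- of mice 1 to 4. The count of 9 became 2, 5, 2 and 15 without mouse 1, 2, 3 or 4, and 1 without the block. Monocyte markers summed to 273 to 381 CPM in mtD2+ and 492 to 630 in mtD2-, where Ccr2 alone of 6 passed. Markers of plasmacytoid dendritic cells, strong sources of interferon, summed without Bst2 to 200 to 242 CPM in mtD2+ and 235 to 313 in mtD2-. That sum covers 3 tested genes, 2 with positive and 1 with a negative fold change (median log2 0.22). Klk1 of that list had 0 counts. The B cell marker Cd79b fell to 20.7 ± 3.61 CPM in mtD2+, against 39.9 ± 11.6 CPM in mtD2-. It was 1 of 4 tested, of which 2 had positive and 2 had negative fold changes (median log2 0.18). T and NK cell markers stayed under 3 CPM in each library. All 10 macrophage markers were detected, 1 rose (Mertk) and 2 fell (Adgre1 and C1qb), and their sums were 13769 to 16431 CPM in mtD2+ and 16143 to 18541 in mtD2-. The part of these differences in the member results was not tested, and in bulk RNA fewer cells of a type and less RNA per cell cannot be told apart. On the first principal component (26.4% of variance) the mtD2+ libraries lay at -60.5 to -18.7 and those of mtD2- at 3.6 to 81.1. The mtD2- library of mouse 4 stood apart at 81.1, against 3.6 to 28.4 for the other mtD2- libraries. Without mouse 4, 4 members rose (Isg15, Rsad2, Trim25 and Ddx60), where 432 of 14045 tested genes rose, and Tor3a missed the threshold.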

How the data were processed

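Per the submitters' processing notes, reads were handled with STAR 2.0.4b and bcl2fastq and assigned to genes with featureCounts 1.45 (Subread) on build GRCm38; options and strand are not stated. Per the labels' protocols, RNA was amplified with an ultra-low-input kit, which can add noise at low counts. The authors deposited raw gene counts, CPM (scaled to each library's whole total) and RPKM (the same, divided by exon length). The deposited CPM was not used. Symbols came from GENCODE M21, matched for 40340 gene IDs, and coordinates are the files' gene spans.

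Counts were tested with edgeR 4.0.16 (R 4.3.3): TMM factors, a minimum count of 10 and total of 15, the mouse as a block, and Benjamini-Hochberg adjustment over 13933 genes. SEs were derived from the fold change and its F statistic. The pairing comes from the labels, which give a mouse for each library, and from the series' design text. Deviations from the population means correlated within mice 1 to 4 at 0.039, 0.070, 0.145 and 0.251, against at most 0.058, 0.025, 0.014 and -0.010 with another mouse, so mouse 1 did not correlate best with itself. No library repeated another. The test was tried on simulated data. Alternatives were the model without block, 3 scalings, 2 filters, DESeq2 1.42.0, limma voom 3.58.1, thinned counts and leaving out each mouse. The members, lists and alternatives were chosen with earlier results of these data known. All members are accounted for; every library's value is given for members that passed, for the 2 of smallest p in a role group with none, for the 5 highest in RPKM and for Usp18, Cmpk2 and Adar, named after their values were seen. Other lists are given by up to 4 genes of smallest p; the receptor genes, Irf9, Irf7, Ifit3 and Oasl2 were added after seeing the data. The values of 1 signalling gene are not reported here. Marker lists of adipocytes, endothelium, conventional dendritic cells and neutrophils were read too and are given in the closing section.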

Additional observations from a re-analysis of the deposited data

Results flagged for a closer look

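In 4 of 72 sets of 4 libraries, 1 library lay far from the other 3, where chance puts about 1 set in 20. Slfn5 stood at 45.5 CPM in the mtD2+ library of mouse 2, against 37.8 to 38.8 CPM in the other mtD2+ libraries. The other 3 sets were of mtD2- macrophages, and the far library was that of mouse 4 each time. There Shisa5 stood at 561 CPM, against 394 to 415 CPM in the other mtD2- libraries. Epsti1 stood at 115 CPM, against 143 to 149 CPM. Xaf1 stood at 37.6 CPM, against 42.9 to 43.6 CPM. None of these genes passed the test with edgeR. The same library stood apart on the first principal component, and whether 1 property of it underlies both was not tested.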

How the results depend on the processing

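Of 467 fits of single members under the alternatives, 419 kept direction and call, 23 lost a call, 6 gained one and 19 turned sign, with 0 sign turns in called members. The 419 include members that were not called and stayed so. All lost calls fell on the 6 called members, each with 13 alternatives. Ifi203 and Tor3a lost the call in 6 each, Isg15 and Rsad2 in 4 each, Trim25 in 2 and Ddx60 in 1. Without the replicate block, 1 member was called (Trim25), with 6 higher and 2 lower at an unadjusted p under 0.05. In that model 218 genes passed in all, with 0 signalling genes (4 higher and 5 lower unadjusted), 2 Ifit and Oas genes, 0 GTPase genes (1 and 2 unadjusted) and 1 dissociation gene. DESeq2 called 1816 genes in all, 2 GTPase genes and 14 dissociation genes. Leaving out each mouse gave 166 to 555 calls in all, 1 to 4 members, 2 to 3 signalling genes, 3 Ifit and Oas genes, 0 to 1 GTPase genes and 2 to 15 dissociation genes. With library totals the split over all genes was 407 higher and 349 lower, against 519 and 248. Without the low-count filter 1051 genes passed. Signs turned for Usp18 (-0.046 without the block, -0.031 with library totals, and -0.18 to 0.19 over the fits without each mouse), Dhx58 (-0.056 with library totals, -0.031 to 0.036), Trim30a (-0.056 with library totals, -0.0016 with limma voom, -0.0037 thinned, -0.062 to 0.054) and Isg20 (0.00059 with upper-quartile factors, -0.20 to 0.10). Over the fits without each mouse they also turned for Ly6e (-0.19 to 0.026), Cmpk2 (-0.40 to 0.14), Eif2ak2 (-0.11 to 0.33) and Slfn8 (-0.0016 to 0.33). The causes were not tested. The readings of the dissociation list, Ifnb1 and other genes outside the list under these settings were added after seeing the data. The stricter filter removed Ifi44. Ifi44, at 0 to 32 counts a library, and Ifi44l, at 0, are too low to compare at this depth.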

Other observations

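Relatives of the members, chosen after their values were seen, differed among themselves. Ifi207, a PYHIN gene near Ifi203, stood at 1173, 1030, 1149 and 1148 CPM in mtD2+, against 932, 722, 760 and 696 CPM in mtD2- (log2 0.54, SE 0.11, adjusted p = 0.0241, edgeR). It was 1 of 9 tested PYHIN relatives that passed; Aim2, a DNA sensor of the inflammasome, had a log2 fold change of 0.41 (SE 0.22), Mndal 0.22 (SE 0.13) and Ifi205 -0.73 (SE 0.25). Slfn2, a Schlafen gene that keeps T cells and monocytes quiescent, averaged 1559 ± 256 CPM in mtD2+ and 1042 ± 312 CPM in mtD2- (log2 0.62, SE 0.15, adjusted p = 0.0488, edgeR, n = 4 each). It was higher in each mouse, by 0.04 on the log2 scale in mouse 4. Ifi207 and Slfn2 both lost the call without mouse 1, 2 or 3 and without the block (adjusted p = 0.0788 and 0.184, edgeR). The copies of both families are alike in sequence, so their reads are uncertain.

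The sensor gene Ddx58, which encodes RIG-I, had a log2 fold change of 0.08 (SE 0.14), while its relative Ifih1 rose. All 6 adipocyte markers had positive fold changes (median log2 0.57) and 0 passed the test. They summed to 107 to 285 CPM in mtD2+ and 117 to 155 in mtD2-, lower in mtD2+ in mouse 3 alone. Conventional dendritic cell markers summed to 174 to 215 CPM in mtD2+ and 129 to 212 in mtD2-. Endothelial markers summed to at most 22.0 CPM, and no neutrophil marker had enough counts to test.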
